A study of Mus musculus with 12 samples.

Results

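The 8 genes described here encode enzymes of fatty acid oxidation, the regulators of those enzymes and a hormone under the same control. They are Ppara, Ppargc1a, Cpt1a, Cpt2, Acadm, Acadl, Ehhadh and Fgf21, out of 19937 genes with an array row annotated to 1 symbol. They were taken by name. Each of 7 genes has a single row, and of the 2 rows of Ppargc1a the one with the higher mean over the 12 arrays was used. Values are log2 of the deposited intensity, and all differences are on the log2 scale.

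The series holds 12 Affymetrix MoGene 1.0 ST arrays of sorted liver cells and of liver organoids from C57Bl6 mice, with 3 libraries in each of 4 groups. Yap-on organoids came from livers in which Yap, a coactivator restrained by Hippo signalling, had been on for 3 weeks, and Yap was kept on with doxycycline for 2 weeks of culture. Yap-off organoids came from livers with the same 3 weeks of Yap, followed by 2 weeks of culture without doxycycline, so that Yap was off. Both therefore had Yap switched on in the animal. Wild-type organoids were also grown for 2 weeks, under wild-type conditions. The libraries labelled hepatocyte are FACS-sorted, YFP-positive cells of uninduced livers, which were not grown as organoids. The promoter driving Yap or YFP, the animals' age and whether replicates came from separate animals are not given. All p-values therefore rest on the scatter among these libraries alone, and that scatter may be technical.

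In the liver, fatty acids released by fasting are activated to acyl-CoA, carried into mitochondria as carnitine esters and shortened by repeated oxidation to acetyl-CoA, which feeds the citrate cycle or ketone bodies. PPAR-alpha, the product of Ppara, is a nuclear receptor that binds fatty acids, pairs with RXR and switches on the genes of this pathway, with PGC-1alpha (Ppargc1a) as a coactivator. Hepatocytes are the main site of the pathway in the liver and of its ketone body output.

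Summed intensities of 10 hepatocyte markers (among them Alb, Apoa1 and Apoc3) were 2904 to 3170 in Yap-on organoids, 27724 to 35159 in Yap-off organoids, 12905 to 17542 in wild-type organoids and 12406 to 17738 in the libraries labelled hepatocyte. For 9 biliary markers (among them Krt19, Krt7 and Sox9) the sums were 8694 to 10433 in Yap-on organoids, 683 to 1033 in Yap-off organoids, 825 to 2399 in wild-type organoids and 293 to 2478 in the libraries labelled hepatocyte. In wild-type organoid 1 and 3 the biliary sum rests mostly on Aqp1, which had 10.79 and 9.40 there, while Krt7 had 3.70 and 3.35. By both sums the Yap-on organoids were rich in biliary and poor in hepatocyte transcripts. In each Yap-on library, 3 of the 10 hepatocyte markers still lay above the median gene of the array. Ttr averaged 11.27 in Yap-on organoids and 11.29 in the libraries labelled hepatocyte, and Hnf4a averaged 8.54 and 7.95. Of 2 labels, libraries stood apart from their own group. Krt19, a bile duct keratin, had 4.28, 9.28 and 4.92 in wild-type organoids and 10.21, 4.95 and 9.82 in the libraries labelled hepatocyte. Summed macrophage markers reached 17505 and 27132 in wild-type organoid 1 and 3 and 31904 in hepatocyte 2, against 206 to 523 in all other libraries. Across genes, wild-type organoid 1 and 3 correlated at 0.936 and 0.951 with hepatocyte 2, and wild-type organoid 2 at 0.953 and 0.955 with hepatocyte 1 and 3. Within their own labels, wild-type organoid 2 correlated at 0.816 and 0.80 and hepatocyte 2 at 0.822 and 0.826 with the other two. Whether labels were exchanged was not tested, and every difference from wild-type organoids or hepatocytes takes the labels as given. Across genes, libraries correlated at 0.992 to 0.995 within Yap-on organoids and 0.975 to 0.983 within Yap-off organoids, but at 0.80 to 0.969 within wild-type organoids and 0.822 to 0.989 within the libraries labelled hepatocyte. Yap1 itself had 7.28 to 7.45 in Yap-on organoids and 6.88 to 7.35 in Yap-off organoids, which overlap, and the labels do not say whether its array row detects the switched-on Yap. Sex-linked transcripts also differed. Xist had 3.14 to 3.20 in Yap-on organoids and 8.49 to 9.20 in Yap-off organoids, so that for every difference between these groups, the sex of the animals and the state of Yap cannot be told apart.

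The regulators were the members that differed most between Yap-on and Yap-off organoids. Ppara had 4.81, 4.95 and 4.90 in Yap-on organoids, 7.23, 7.19 and 7.22 in Yap-off organoids, 5.43, 6.59 and 5.93 in wild-type organoids, and 9.08, 5.02 and 9.33 in the libraries labelled hepatocyte. All 3 Yap-on libraries lay below every other library, and Yap-off libraries lay above every wild-type library. The libraries labelled hepatocyte 1 and 3 held the highest values, while the library labelled hepatocyte 2 lay next to the Yap-on range. In limma on the 6 arrays, Ppara was 5.02-fold lower in Yap-on than in Yap-off organoids (log2 difference -2.33, SE 0.09, 95% interval -2.54 to -2.12, adjusted p = 4.6e-06, but 0.139 in a fit of all 12 arrays). In these bulk libraries, fewer cells with the transcript and less transcript per cell cannot be told apart. Between Yap-on and Yap-off organoids the hepatocyte markers moved in the same direction as Ppara. Their sums were 17286 and 17738 in hepatocyte 1 and 3, where Ppara was highest. In hepatocyte 2, with Ppara at 5.02, the sum was 12406, and in wild-type organoid 1 and 3 it was 17542 and 16313. The part of these markers in the Ppara result was not tested.

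Ppargc1a had 3.22, 3.27 and 3.26 in Yap-on organoids, 4.50, 6.02 and 6.67 in Yap-off organoids, 3.52, 5.20 and 3.41 in wild-type organoids, and 5.27, 3.44 and 5.72 in the libraries labelled hepatocyte. The Yap-on libraries again lay below all others, and lay below the median gene of an array (4.14 to 4.34). Yap-off organoids spread widely, and replicate 1 was lowest. Ppargc1a was lower in Yap-on than in Yap-off organoids by a log2 difference of -2.48 (SE 0.50, 95% interval -3.67 to -1.30, adjusted p = 0.0102, and 0.053 in the 12-array fit). The second Ppargc1a row gave 2.44 to 2.50 in Yap-on organoids and 3.43 to 4.60 in Yap-off organoids, also without overlap.

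The starts of both regulator genes lie in unlike sequence. The 250 bases before each RefSeq start (GRCm38.p6, in gene orientation) are shown because both genes were lower in Yap-on than in Yap-off organoids. The Ppara window is chr15:85735526-85735775 (plus strand), 76.4% G and C. The Ppargc1a window is chr5:51567726-51567975 (minus strand), 48.0% G and C, beside a median of 52.4% over all promoters. Both gene records reach further upstream than the start used here.
Ppara: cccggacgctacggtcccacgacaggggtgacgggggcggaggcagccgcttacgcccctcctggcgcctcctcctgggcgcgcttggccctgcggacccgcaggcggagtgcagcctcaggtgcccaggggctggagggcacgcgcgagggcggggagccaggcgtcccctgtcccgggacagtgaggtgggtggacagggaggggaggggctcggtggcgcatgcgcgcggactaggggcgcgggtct
Ppargc1a: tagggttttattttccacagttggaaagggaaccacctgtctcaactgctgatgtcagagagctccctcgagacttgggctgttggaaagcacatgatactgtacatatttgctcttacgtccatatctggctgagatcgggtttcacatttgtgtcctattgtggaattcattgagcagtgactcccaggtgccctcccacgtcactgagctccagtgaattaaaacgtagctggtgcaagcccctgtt

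**Figure D1:**
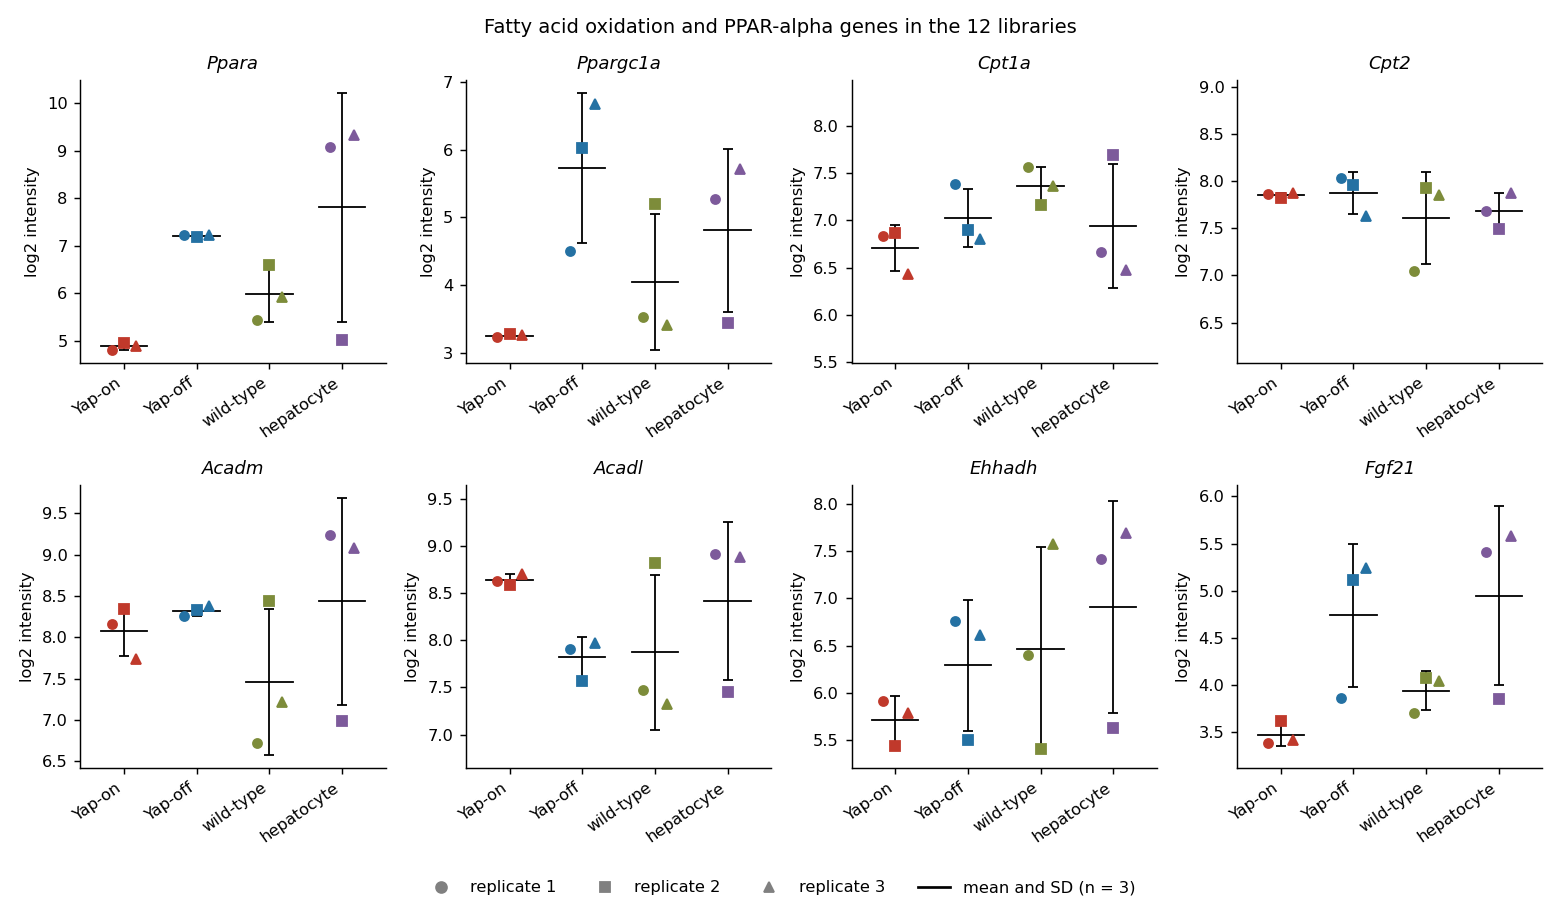
Log2 intensity (vertical axes, each with its own range) of the 8 genes in every library, with 3 points per group, the group mean as a line and the SD as bars, in the order Yap-on, Yap-off and wild-type organoids and hepatocyte-labelled cells. Ppara lies at 4.81 to 4.95 in Yap-on organoids and at 7.19 to 7.23 in Yap-off organoids, while Cpt2 lies between 7.05 and 8.04 in all 12 libraries.

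The carnitine palmitoyltransferases, which pass long-chain fatty acids through the mitochondrial membranes, were not called. Cpt1a, the outer-membrane enzyme that controls entry, had 6.83, 6.87 and 6.43 in Yap-on organoids, 7.38, 6.90 and 6.81 in Yap-off organoids, 7.56, 7.16 and 7.36 in wild-type organoids, and 6.67, 7.70 and 6.47 in the libraries labelled hepatocyte. Its Yap-on and Yap-off libraries overlapped, and it was the only member with its highest mean in wild-type organoids. The log2 difference of Yap-on minus Yap-off was -0.32 (95% interval -0.77 to 0.14, adjusted p = 0.234). After a renewed quantile normalization this was -0.61 with an adjusted p of 0.0378, so the call of Cpt1a depends on the scaling. Cpt2, the inner-membrane enzyme that releases the fatty acid again, had 7.86, 7.82 and 7.87 in Yap-on organoids, 8.04, 7.96 and 7.63 in Yap-off organoids, 7.05, 7.93 and 7.86 in wild-type organoids, and 7.68, 7.50 and 7.87 in the libraries labelled hepatocyte. It had the smallest SD over the 12 arrays of the 8 members (0.27), the ranges of all groups overlapped, and wild-type organoid 1 was lowest. Its Yap-on minus Yap-off difference of -0.02 has a 95% interval of -0.33 to 0.28 (adjusted p = 0.889).

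The acyl-CoA dehydrogenases, which take the first oxidation step in the mitochondrion, went separate ways. Acadl, the long-chain enzyme, had 8.63, 8.59 and 8.70 in Yap-on organoids, 7.91, 7.57 and 7.97 in Yap-off organoids, 7.48, 8.82 and 7.32 in wild-type organoids, and 8.92, 7.45 and 8.88 in the libraries labelled hepatocyte. Every Yap-on library lay above every Yap-off library, in the opposite direction to Ppara. The difference was 0.82 (SE 0.13, 95% interval 0.51 to 1.13, adjusted p = 0.00375, but 0.267 in the 12-array fit), a 1.77-fold higher level in Yap-on organoids. Acadm, the medium-chain enzyme, had 8.16, 8.34 and 7.74 in Yap-on organoids, 8.26, 8.33 and 8.38 in Yap-off organoids, 6.72, 8.44 and 7.22 in wild-type organoids, and 9.24, 6.99 and 9.08 in the libraries labelled hepatocyte. Yap-on and Yap-off libraries overlapped, with a difference of -0.24 (95% interval -0.62 to 0.15, adjusted p = 0.283). Across all 12 arrays Acadl and Acadm were nonetheless the closest pair among the members. After each gene's mean was removed they differed by 0.50 (root mean square over the 12 arrays, a description).

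Ehhadh, the bifunctional enzyme of peroxisomal oxidation and a classical PPAR-alpha target, had 5.92, 5.43 and 5.79 in Yap-on organoids, 6.76, 5.50 and 6.61 in Yap-off organoids, 6.40, 5.41 and 7.58 in wild-type organoids, and 7.42, 5.62 and 7.69 in the libraries labelled hepatocyte. Replicate 2 was the lowest library of all 4 groups, and the groups overlapped. Its Yap-on minus Yap-off difference was -0.58 (95% interval -1.37 to 0.22, adjusted p = 0.217). Without Yap-off organoid 2 it was -0.97 with an adjusted p of 0.00896, so 1 library decides whether Ehhadh passes.

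Fgf21, the hormone that the liver secretes in fasting under PPAR-alpha, had 3.39, 3.62 and 3.42 in Yap-on organoids, 3.87, 5.12 and 5.24 in Yap-off organoids, 3.70, 4.08 and 4.05 in wild-type organoids, and 5.41, 3.86 and 5.58 in the libraries labelled hepatocyte. Yap-on libraries lay below all others, and below the median gene of an array. Fgf21 was lower in Yap-on than in Yap-off organoids by a log2 difference of -1.26 (SE 0.35, 95% interval -2.09 to -0.44, adjusted p = 0.0332, but 0.114 in the 12-array fit). The call was lost without any single one of 5 of the 6 libraries (adjusted p from 0.0782 to 0.107), and remained without Yap-off organoid 1 (0.000184). The 250 bases before its start are chr7:45615491-45615740 (GRCm38.p6, minus strand), where capitals mark TATAAA, 28 to 23 bases before the start on the gene's own strand.
Fgf21: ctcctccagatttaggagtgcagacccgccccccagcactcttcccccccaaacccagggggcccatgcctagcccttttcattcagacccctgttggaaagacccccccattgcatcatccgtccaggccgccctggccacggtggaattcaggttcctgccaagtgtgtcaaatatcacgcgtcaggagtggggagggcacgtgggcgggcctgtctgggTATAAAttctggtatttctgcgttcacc

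In sum over the members, Yap-on against Yap-off organoids gave 4 of 8 calls at an adjusted p under 0.05, with Acadl higher and Ppara, Ppargc1a and Fgf21 lower. Of all 19937 genes, 31.2% were called, 3817 higher and 2395 lower, so that with 8 members the count is not far from that of genes in general. The same 4 members had an unadjusted p under 0.05, beside 44.6% of all genes, and did not overlap between the groups, beside 53.5% of all genes. The median member difference was -0.45, beside -0.08 for all genes. In a fit of all 12 arrays, in which all 4 groups share 1 estimate of the spread, none of the 8 was called. There 11.5% of all genes were called.

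**Figure D2:**
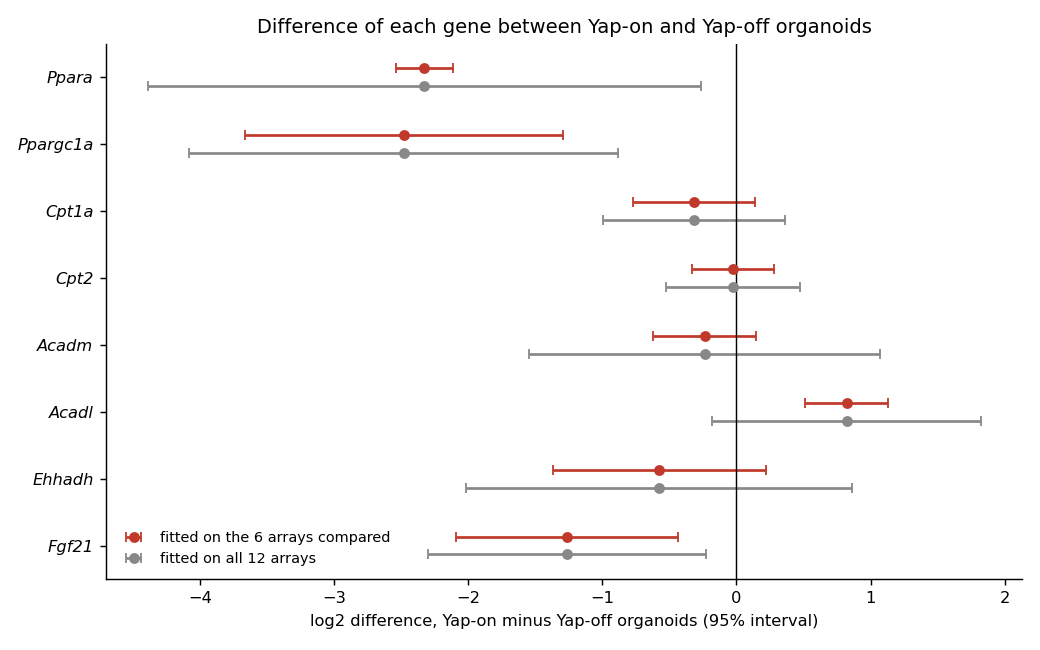
Log2 difference, Yap-on minus Yap-off organoids, of each of the 8 genes with its unadjusted 95% interval from limma, in red on the 6 arrays compared and in grey on all 12. In red, the intervals of Ppara (-2.54 to -2.12), Ppargc1a and Fgf21 lie below 0, that of Acadl (0.51 to 1.13) lies above 0 and the other 4 include 0, while in grey all are wider and that of Acadl also includes 0.

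Letters matching the binding site of PPAR-alpha were sought in the same windows. The full site (DR1) is the element AGGTCA repeated in the same direction after 1 free base. Allowing up to 2 mismatches on either strand, it was in 0 of the 8 windows and in 3.24% of 32851 promoters of the same length. A single AGGTCA was in 2 of 8 windows, beside 14% of all promoters, and both matches lie on the opposite strand, where they read TGACCT. They are printed in capitals here, at 94 to 89 bases before the start of Cpt1a (chr19:3323051-3323300, plus strand) and 249 to 244 bases before that of Acadm (chr3:153944644-153944893, minus strand). The gene record of Cpt1a, like those of Ppara and Ppargc1a, reaches further upstream than the start used here. TATAAA on the gene strand, a motif chosen after the letters were seen, was in Fgf21 alone of the 8 and in 7.59% of all promoters. These matches describe letters in 1 window per gene and say nothing of binding.
Cpt1a: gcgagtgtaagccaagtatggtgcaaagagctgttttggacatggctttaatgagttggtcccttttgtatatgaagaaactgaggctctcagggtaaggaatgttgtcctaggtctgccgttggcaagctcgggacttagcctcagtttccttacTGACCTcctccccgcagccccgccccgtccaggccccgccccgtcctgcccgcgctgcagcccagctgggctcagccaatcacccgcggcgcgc
Acadm: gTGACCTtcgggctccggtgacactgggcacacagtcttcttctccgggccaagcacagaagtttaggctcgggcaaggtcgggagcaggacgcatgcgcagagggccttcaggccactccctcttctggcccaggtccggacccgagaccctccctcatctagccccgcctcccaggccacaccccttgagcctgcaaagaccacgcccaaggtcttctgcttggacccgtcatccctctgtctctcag

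Against wild-type organoids, the Yap-on organoids had 0 of 8 members called in limma, beside 3.51% of all genes. An unadjusted p under 0.05 was reached by 3, beside 18.5% of all genes. They were Ppara (-1.10, adjusted p = 0.144), Cpt1a (-0.65, adjusted p = 0.149) and Fgf21 (-0.47, adjusted p = 0.2). The same 3 and Ppargc1a (-0.79) did not overlap, beside 26.0% of all genes. Yap-off against wild-type organoids gave 0 calls (0.306% of all genes) and 1 member under an unadjusted p of 0.05 (13.5% of all genes). That was Ppara, higher in every Yap-off library with a difference of 1.23 (95% interval 0.48 to 1.97, adjusted p = 0.192), and it was also the 1 member without overlap (19.3% of all genes). These comparisons share libraries with the first. Xist had 8.49 to 9.20 in Yap-off and 3.14 to 3.30 in wild-type organoids, so that here too Yap and sex cannot be told apart, while Yap-on organoids (3.14 to 3.20) were like the wild-type organoids in Xist.

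Against the libraries labelled hepatocyte, limma called 0 of 8 members in every organoid group, and the background was 8.82% of all genes for Yap-on, 0.717% for Yap-off and 0% for wild-type organoids. An unadjusted p under 0.05 was reached by 2 members for Yap-on (25.6% of all genes), 0 for Yap-off (12.5%) and 0 for wild-type organoids (3.67%, or 731 genes). No member of the Yap-off or wild-type organoids was free of overlap with the hepatocyte libraries, beside 19.6% and 7.64% of all genes. For Yap-on organoids, Ppara (-2.93, 95% interval -5.90 to 0.05, adjusted p = 0.201), Ppargc1a (-1.56, adjusted p = 0.18) and Fgf21 (-1.47, adjusted p = 0.133) did not overlap with any of the 3 hepatocyte libraries, beside 39.6% of all genes. The library labelled hepatocyte 2 was far from the other two. It lay below both in 7 of 8 members and above both in Cpt1a. The library labelled wild-type organoid 2 lay above both of its group in 6 members and below both in Cpt1a and Ehhadh. Macrophage markers also set these libraries apart, being low in wild-type organoid 2 and high in hepatocyte 2, and their part in the member values was not tested.

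With those 2 libraries left out, far more was called for members and for all genes alike. The library labelled wild-type organoid 2 is the one that decides the comparisons with wild-type organoids. Yap-on minus wild-type then gave 5 calls of 8, with Acadl (1.24) and Acadm (1.11) higher and Ppara (-0.80), Cpt1a (-0.75) and Ehhadh (-1.28) lower, beside 42.0% of all genes. Yap-off minus wild-type gave 3 calls, Ppara (1.53), Ppargc1a (2.27) and Acadm (1.35), all higher, beside 23.3% of all genes. The wild-type libraries that remain there are the 2 rich in macrophage and endothelial transcripts.

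For Yap-on and Yap-off organoids against hepatocytes the library labelled hepatocyte 2 decides the calls, whereas wild-type minus hepatocytes had 0 members called without any single library. Without the 2 libraries, Yap-on minus hepatocytes gave 5 calls of 8, all lower, for Ppara (-4.32), Ppargc1a (-2.24), Acadm (-1.08), Ehhadh (-1.84) and Fgf21 (-2.02), beside 32.4% of all genes. Yap-off minus hepatocytes gave 3 calls, all lower, for Ppara (-1.99), Acadm (-0.84) and Acadl (-1.08), beside 9.26% of all genes. Wild-type minus hepatocytes gave 6 calls, with Cpt1a higher (0.89) and Ppara (-3.52), Ppargc1a (-2.03), Acadm (-2.19), Acadl (-1.50) and Fgf21 (-1.62) lower, beside 24.8% of all genes. The hepatocyte side of each of these comparisons rests on 2 libraries, both high in Krt19. Xist was at least 8.82 in both, against 3.00 in hepatocyte 2, so that without hepatocyte 2 the differences of Yap-on and wild-type organoids from hepatocytes cannot be told apart from sex.

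The genes nearest in pattern were taken for the 2 members with an SD over 1. By root mean square difference of mean-centred log2 values over the 12 arrays, the nearest to Ppara were Mme (0.361), a membrane endopeptidase, Mttp (0.463), which loads lipid onto lipoproteins, and Nav2 (0.473). Mttp had 4.57, 4.40 and 4.28 in Yap-on organoids, 7.17, 7.04 and 7.33 in Yap-off organoids, 5.94, 5.47 and 5.05 in wild-type organoids, and 8.47, 5.25 and 8.67 in the libraries labelled hepatocyte. It shared with Ppara the low value of hepatocyte 2. The nearest to Ppargc1a were Tm6sf2 (0.334), a protein of lipid export, Cped1 (0.396) and Nags (0.423), a urea cycle enzyme. These are descriptions over the same arrays, with no test.

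The other receptors of the PPAR family ran opposite to Ppara. Pparg, the receptor best known from adipocytes, had 7.96, 8.12 and 8.14 in Yap-on organoids, 6.11, 5.94 and 5.96 in Yap-off organoids, 5.55, 5.25 and 6.02 in wild-type organoids, and 6.36, 6.02 and 6.55 in the libraries labelled hepatocyte. Ppard, the widely expressed form, had 7.25, 7.14 and 7.07 in Yap-on organoids, 5.65, 5.41 and 5.58 in Yap-off organoids, 5.67, 5.78 and 5.21 in wild-type organoids, and 6.16, 6.23 and 6.19 in the libraries labelled hepatocyte. For both genes, every Yap-on library lay above every other library. In Yap-on minus Yap-off organoids Pparg rose by 2.07 (SE 0.10, adjusted p = 1.67e-05) and Ppard by 1.61 (SE 0.11, adjusted p = 7.65e-05). Both calls held in the fit of all 12 arrays, where the adjusted p was 0.000116 for Pparg and 9.56e-05 for Ppard. Both were also higher in Yap-on than in wild-type organoids (Pparg 2.47, adjusted p = 0.0041; Ppard 1.60, adjusted p = 0.0105) and hepatocytes (Pparg 1.77, adjusted p = 0.0032; Ppard 0.96, adjusted p = 0.0034). Rxra, the partner with which these receptors bind DNA, fell to 6.77, 6.76 and 6.55 in Yap-on organoids, against 8.51, 8.45 and 8.84 in Yap-off organoids (difference -1.90, adjusted p = 0.000102, and 0.0212 with all 12 arrays).

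**Figure D3:**
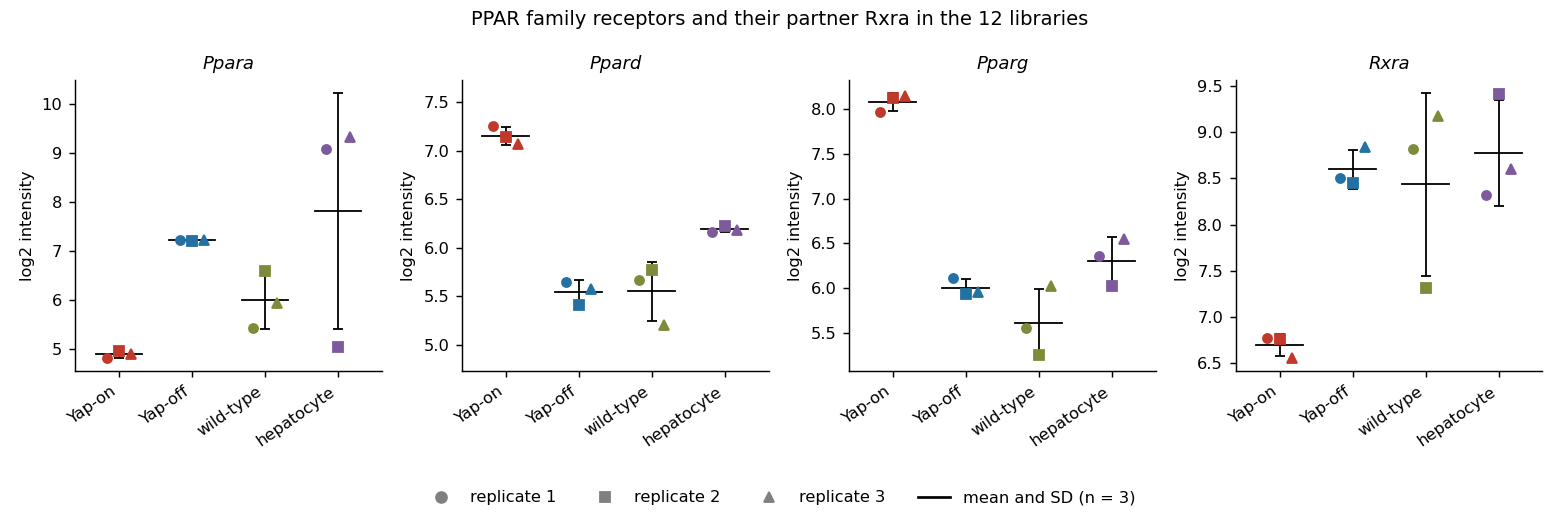
Log2 intensity (vertical axes, each with its own range) of Ppara, Ppard, Pparg and Rxra in the 12 libraries, with the mean and SD of 3 libraries per group. Ppara and Rxra are lowest in Yap-on organoids, while Ppard (7.07 to 7.25) and Pparg (7.96 to 8.14) are highest there.

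The rest of the pathway, 101 genes measured in 8 lists, split between both directions in Yap-on against Yap-off organoids, with 21 higher and 23 lower at an adjusted p under 0.05, where 31.2% of all genes were called. Their median difference was -0.15, beside -0.08 for all genes. With all 12 arrays, 6 were higher and 8 lower, beside 11.5% of all genes called. These lists were chosen with earlier results of the data known. Against wild-type organoids 2 of the 101 were higher in Yap-on organoids (Pparg and Ppard) and 3 lower (Cd36, Cyp4a12a and Fgfr1). Of all genes, 3.51% were called there. In Yap-off organoids 1 was higher (Cyp4a31), beside 0.306% of all genes called. Against the libraries labelled hepatocyte 6 were higher and 10 lower in Yap-on organoids, beside 8.82% of all genes called, and none was called in the other organoid groups. The 12-array fit called Klb higher (1.23) and Acot2 (-3.15) and Retsat (-2.06) lower in Yap-off organoids, beside 1.90% of all genes. Without wild-type organoid 2 and hepatocyte 2, 15 were higher and 47 lower in Yap-on (32.4% of all genes), 5 higher and 23 lower in Yap-off (9.26%) and 8 higher and 37 lower in wild-type organoids (24.8%) against hepatocytes. Of 20 target genes, 15 were lower in Yap-on, 6 in Yap-off and 10 in wild-type organoids, and 0, 0 and 2 were higher. Of 18 mitochondrial genes, 11, 6 and 13 were lower and 1, 0 and 0 higher, in that order. The 12 uptake genes split, with 6, 3 and 2 lower and 3, 2 and 3 higher. For Yap-on and wild-type organoids these differences from hepatocytes cannot be told apart from sex. Against wild-type organoids, 32 of the 101 were higher and 24 lower in Yap-on (42.0%) and 21 higher and 13 lower in Yap-off organoids (23.3%).

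Of 12 genes of uptake and activation, 2 were higher and 6 lower (median -0.68), beside 31.2% of all genes called. Fabp1, the liver fatty acid binding protein, averaged 2.94 in Yap-on organoids and 9.22 in Yap-off organoids (-6.28, adjusted p = 2.55e-06). Cd36, a fatty acid transporter, averaged 2.57 in Yap-on organoids and 8.03 in Yap-off organoids (-5.46, adjusted p = 2.24e-07). The transport proteins Slc27a2 (-5.10) and Slc27a5 (-4.82) were lower too, and the Yap-on values of these 4 genes lie below the median gene of an array (4.14 to 4.34), where the size of a difference is uncertain. The binding proteins Fabp2 of intestine (2.26) and Fabp5 (1.05) were higher. The 12-array fit called 1 higher and 4 lower, beside 11.5% of all genes, and Fabp5 was not among them. Fabp1, which is also a hepatocyte gene, moved together with the hepatocyte markers. All 10 of these markers were lower in Yap-on organoids, by unlike amounts (median -7.25, range -8.98 to -0.98).

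In the carnitine list, which leaves out the members Cpt1a and Cpt2, 4 of 8 genes were called higher and none lower (median 0.30). Of all genes, 31.2% were called, 19.1% of them all being higher. The 4 were Cpt1c, the form of CPT1 best known from brain (0.83, adjusted p = 0.00261), Crot, the peroxisomal carnitine transferase (0.63), and the carnitine carriers Slc22a21 (0.61) and Slc22a5 (0.36). In the 12-array fit Slc22a21 alone was called, beside 11.5% of all genes. Its means of 3.71 in Yap-on and 3.10 in Yap-off organoids both lie below the median gene of an array (4.14 to 4.34). Ketone body genes had 3 of 5 higher and none lower, beside the same share of all genes. Oxct1, which uses ketone bodies outside the liver, was higher by 0.95 (adjusted p = 0.0118), Bdh1, which interconverts them, by 0.82, and Slc16a6, known from zebrafish to export them from the liver, by 0.60. Oxct1 alone was called in that fit (adjusted p = 0.0495).

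Like most genes (31.2% of all were called), most oxidation enzymes did not pass. In mitochondria 1 of 18 was higher and 3 lower (median -0.14). Acad9, a dehydrogenase that also helps to build the respiratory chain, averaged 6.04 in Yap-on organoids and 4.91 in Yap-off organoids (1.13, adjusted p = 0.00548). Etfb, which takes up the electrons of the dehydrogenases (-0.92), Hadh (-0.61) and the thiolase Acaa2 (-0.51) were lower. In peroxisomes 2 of 13 were higher and 2 lower (median -0.03). Acox2, an oxidase of branched chains and bile acid precursors, was lower by a difference of -2.08 (adjusted p = 9.01e-05), as was the transporter Abcd2 (-1.26), and Ech1 (0.82) and Acox3 (0.77) were higher. None of these 8 was called with all 12 arrays, beside 11.5% of all genes.

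Of 20 target genes of PPAR-alpha, 7 were lower and 2 higher (median -0.38), beside 31.2% of all genes called. Cyp4a31, a fatty acid hydroxylase, averaged 2.97 in Yap-on organoids and 5.42 in Yap-off organoids (-2.45, adjusted p = 0.000179), though Cyp4a genes resemble each other closely and the array may not separate them. G0s2, an inhibitor of lipolysis (-2.26), Creb3l3, a liver transcription factor (-1.83), and Cyp4a10 (-1.07) were lower as well. Aldh3a2, which oxidizes fatty aldehydes (0.62), and Plin2, a lipid droplet coat protein (0.46), were higher. Cyp4a31 alone was called in the 12-array fit (adjusted p = 0.0165), beside 11.5% of all genes. Its Yap-on values lie below the median gene of an array, where the size of a difference is uncertain.

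Among 18 partners and coregulators 6 were higher and 2 lower (median 0.14), including the receptors above, beside 31.2% of all genes called. The mediator subunit Med1 was higher (0.88, adjusted p = 0.0118), and Hnf4a, a hepatocyte transcription factor, was lower (-0.98, adjusted p = 0.000781). In the 12-array fit Pparg, Ppard and Med1 were higher and Rxra lower, beside 11.5% of all genes called. Of 7 genes for receptors and related ligands of FGF21, 1 was higher and 3 lower (median -0.39), beside 31.2% of all genes. Klb, the co-receptor that FGF21 needs, averaged 2.89 in Yap-on organoids and 4.49 in Yap-off organoids (-1.61, adjusted p = 0.00343), with Yap-on values below the median gene of an array, and Fgfr1 was lower by a difference of -1.03 (adjusted p = 0.00297). Fgf15, below the median gene of an array in both groups, was lower (-0.55) and Fgf1 higher (0.53). Klb and Fgfr1 were called in the 12-array fit, beside 11.5% of all genes.

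**Figure D4:**
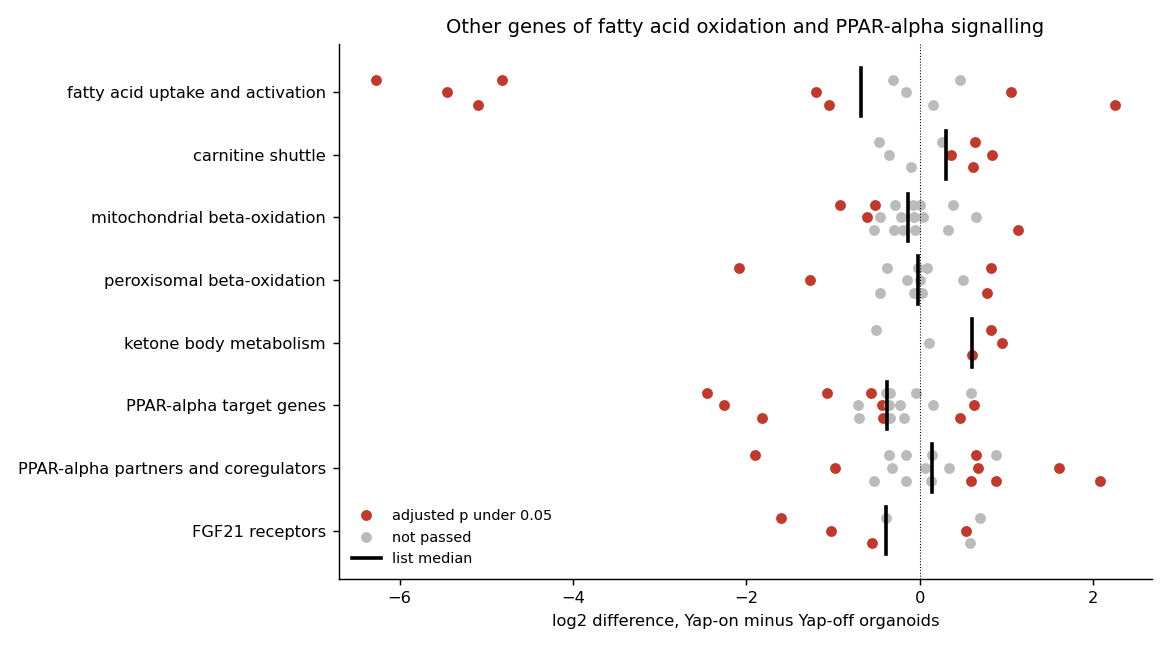
Log2 difference, Yap-on minus Yap-off organoids (horizontal axis), of each of the 101 other pathway genes by list, with called genes in red, genes not called in grey and the list median as a black line. The uptake list reaches -6.28, while the carnitine and ketone lists have medians of 0.30 and 0.60.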

How the data were processed

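Per the labels' protocols, total RNA came from the Qiagen microRNEasy kit and was labelled by Nugen Pico WT. The authors deposited intensities processed with RMA, per the submitters' processing notes. RMA corrects background, normalizes quantiles and summarizes probes. No software version or genome build is given in the sources used here. The values as deposited are linear, and log2 was taken here with no pseudocount and no filter on low values. Groups came from the labels.

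Of 34760 array rows, 21640 named 1 gene and gave 19937 genes, each by its row with the highest mean. Each comparison was fitted on its 6 arrays with limma 3.58.1 (lmFit and eBayes, R 4.3.3), Benjamini-Hochberg adjustment over 19937 genes, called under 0.05. The 6-array fit was chosen because wild-type organoids and libraries labelled hepatocyte were known to spread more than the others. The fit was tested on simulated data. An exact permutation test of 3 arrays against 3 has 0.1 as its lowest two-sided p and was left out. Precision is limited by the number of arrays.

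Members, lists and tests were chosen with earlier results of these data known. Besides the members, the genes named were up to 4 called genes per list with the largest difference between Yap-on and Yap-off organoids, up to 2 called against the direction of their list, the PPAR receptors and Rxra, Yap1, and the 3 genes nearest in pattern to each member with an SD above 1. Xist, Mttp's values and the genes named for counts of 5 or fewer were chosen after their values were seen. Promoter sequences are RefSeq's (GRCm38.p6), with 8 of 8 members matched by gene. Scan dates were not used here. Figures were drawn with matplotlib 3.10.9. The alternatives were a renewed quantile normalization, centring of arrays, the mean or the most variable row of a gene, leaving out the lowest 30% of genes, all 12 arrays, array weights, a replicate block, robust eBayes with an intensity trend, a minimum log2 difference of 1, leaving out wild-type organoid 2 together with hepatocyte 2, and leaving out each library in turn. Some genes of the lists are not reported here.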

Additional observations from a re-analysis of the deposited data

How the results depend on the processing

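The number of members called, 4 for Yap-on minus Yap-off organoids and 0 in each other comparison, kept within 1.5 times of itself in 55 of 65 alternatives that left out no single library. For a count of 0 this means only that it stayed 0, which says little where few genes of any kind were called. In Yap-on minus Yap-off organoids the number of members called was 0 with all 12 arrays, where 2283 genes were called in place of 6212, and 3 with a minimum log2 difference of 1 (2523 genes). With array weights it was 6 for Yap-on minus wild-type (9111 genes, against 699), 3 for Yap-off minus wild-type (5252, against 61), 1 for wild-type minus hepatocytes (1057, against 0), 0 for Yap-off minus hepatocytes (1370, against 143) and 4 for Yap-on minus hepatocytes (5395, against 1759). Without wild-type organoid 2 and hepatocyte 2 it was 5, 3, 6, 3 and 5 in the same order of comparisons (8378, 4639, 4947, 1846 and 6468 genes). With all 12 arrays, 1091, 520, 10, 378 and 1234 genes were called in that order, with 0 members each. Leaving out each library in turn gave 3 to 4 members for Yap-on minus Yap-off, 0 to 5 for Yap-on minus wild-type, 0 to 3 for Yap-off minus wild-type, 0 to 0 for wild-type minus hepatocytes, 0 to 3 for Yap-off minus hepatocytes and 0 to 5 for Yap-on minus hepatocytes, and the values above 0 in the last 5 came without wild-type organoid 2 or hepatocyte 2.

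Whether replicate numbers pair the libraries cannot be settled with 3 libraries per group. Deviations of libraries with the same number correlated at -0.0638 to 0.0715 between Yap-on and Yap-off organoids and at -0.711 to 0.118 over all comparisons. With the replicate number as a block, 4 members and 5404 genes were called in Yap-on minus Yap-off, and 0 members in each other comparison, where 239, 0, 0, 0 and 663 genes were called in the order above.

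Signs reversed in small differences. Cpt2 in Yap-on minus Yap-off was 0.0205 with arrays centred and 0.0066 with array weights. Acadl in Yap-off minus wild-type was 0.308 with array weights and 0.419 without the 2 libraries, Cpt2 in wild-type minus hepatocytes 0.0498 after quantile normalization, Cpt1a in Yap-on minus hepatocytes 0.169 and 0.143, and Acadl there -0.197 and -0.256, with weights and without the libraries. Leaving out 1 library at a time moved Cpt2 from -0.149 to 0.0572 in Yap-on minus Yap-off, from -0.0424 to 0.395 in Yap-on minus wild-type, from -0.0176 to 0.42 in Yap-off minus wild-type and from -0.23 to 0.207 in wild-type minus hepatocytes. In Yap-off minus wild-type, Acadl ran from -0.329 to 0.419 and Ehhadh from -0.701 to 0.385. Ehhadh ran from -1.10 to 0.0782 in wild-type minus hepatocytes. In Yap-off minus hepatocytes, Ppara ran from -1.99 to 0.161, Cpt1a from -0.153 to 0.46, Acadm from -0.839 to 0.289 and Fgf21 from -0.754 to 0.228. In Yap-on minus hepatocytes, Cpt1a ran from -0.471 to 0.143, Acadm from -1.08 to 0.0509 and Acadl from -0.256 to 0.475. The cause was not tested. Of all 520 values of single members in alternatives that left out no single library, 468 kept direction and side of the threshold and 9 reversed. With 1 library left out at a time, 242 of 288 kept both and 24 reversed. Signals below the median gene of an array in Yap-on organoids leave the size of a difference uncertain. Such genes include Ppargc1a, Fgf21, Cd36, Fabp1, Slc27a2, Slc27a5, Klb, Slc22a21, Cyp4a31, Cyp4a10, Abcd2, Fgfr1 and Fgf15.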
